A study of Homo sapiens with 4 samples.

Results

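The core spliceosome genes were taken by symbol among the protein-coding genes. Their symbols begin with SNRPA to SNRPG, or with SNRNP, LSM, SF3A, SF3B, PRPF or U2AF and a digit. By this rule on the symbols, 55 genes were found among 19784 listed protein-coding genes and 40205 listed genes in all, and all 55 were expressed highly enough to be tested. The cells carried an siRNA against the back-splice junction of circZFR (si-circZFR, 2 libraries) or a negative control siRNA (NC, 2 libraries) for 24 h. Both groups were cells of the same human lung cancer line, for which no transgene or drug is named. The submitters' labels name the line H1299, whereas the article places this experiment in A549. *CDKN2A*, which A549 has lost, was listed at 0 in all 4 libraries, and 6 NRF2-driven genes that A549 expresses highly summed to 4165 to 5867 RPKM (reads scaled to transcript length and library size) per library. These values alone do not settle which of the lines was used. The labels do not say whether the 2 libraries of a group came from separate cultures, and p-values then measure only the spread between these libraries.

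The spliceosome removes introns from pre-mRNA. Its U1, U2, U4 and U5 particles (snRNPs) each hold a small nuclear RNA wrapped in a ring of Sm proteins, while U6 carries a ring of the related LSm proteins. U1 recognises the 5′ splice site, the U2AF heterodimer recognises the end of the intron, and U2 with its SF3A and SF3B complexes binds the branch point. The U4/U6.U5 tri-snRNP, which holds several of the proteins named PRPF, then joins and is remodelled into the catalytic enzyme. A minor spliceosome with U11 and U12 removes a rare class of introns. A cytoplasmic LSm ring works in mRNA decay, and LSM10 and LSM11 belong to the U7 particle that trims histone mRNAs, so not every gene with an LSM symbol acts in splicing. LSM8 was not analysed here.

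The 4 libraries held 11040050 to 12816868 reads, as recovered from the RPKM values, of which 98.3% to 98.6% lay on listed genes. The median number of reads on a core spliceosome gene was lowest in si-circZFR 1 (387), with 402 in the other si-circZFR library, and highest in NC 2 (612), with 410 in NC 1. The least covered was *SNRNP48*, with at least 15 to 20 reads, and the most covered *PRPF8*, with 12202 to 14601. All levels below are scaled RPKM, the authors' RPKM after a common scaling of the libraries, and pairs of values give replicate 1 and then replicate 2. *ZFR*, the host gene of the targeted circle, measured 26.1 and 31.3 in NC and 5.30 and 4.65 in si-circZFR, and it fell with a log2FC of -2.31 (limma FDR = 0.0362). The log2FC of *ZFR* lay between -2.52 and -2.17 under all 14 alternatives, but it did not pass under 5 of them, with limma FDR = 0.226 without the filter on low values, 0.0552 without the mean trend, 0.173 without NC 2, 0.340 without si-circZFR 1 and 0.531 without si-circZFR 2. Reads of the circle and of linear *ZFR* cannot be told apart in values per gene. By RT-PCR the article found the circle lowered by the siRNA and *ZFR* without a detectable change, unlike the fall in the gene value here. *HNRNPLL*, the splicing regulator to which the study links the circle, measured 7.57 and 8.97 in NC and 6.63 and 7.39 in si-circZFR (log2FC -0.21, limma FDR = 0.494). For *HNRNPLL* the article reports less protein after silencing and an unaffected mRNA, and only RNA was measured here. Of the 6 epithelial markers, *CDH1* had the smallest p and measured 11.5 and 8.36 against 21.9 and 21.4 (limma FDR = 0.0843). *EPCAM* was near 0 in NC (0.399 and 0.395, against 1.84 and 2.68). *KRT8*, *KRT18* and *KRT19* were higher in si-circZFR without overlap (log2FC 0.40, 0.37 and 0.73), and the groups of *KRT7* overlapped (log2FC 0.23, limma FDR = 0.722). The summed RPKM of 4 immune, 3 fibroblast and 3 endothelial markers stayed at or below 0.697, 2.09 and 0.0303 in every library.

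No core spliceosome gene passed the thresholds of FDR < 0.05 and |log2FC| > 1 after silencing of circZFR, where 0.0576% of all 13885 genes tested did (8 genes). Here log2FC is the difference in log2(scaled RPKM + 1), si-circZFR minus NC, and FDR is the Benjamini-Hochberg adjusted p of limma over all genes tested. The smallest limma FDR values among the 55 genes were 0.0972 for *SF3B2*, 0.102 for *SNRPC* and 0.105 for *LSM10*. An unadjusted p under 0.05 was found for 13 of the 55 genes, 10 of them lower and 3 higher in si-circZFR, against 11.1% lower and 10.6% higher among all genes tested. Under limma-voom on the recovered reads, 0 of the 55 genes passed as well, against 2.05% of all genes. In 22 of the 55 genes both si-circZFR libraries lay below both NC libraries (27% of all genes tested), in 8 both lay above (29.2% of all genes), and in 25 the groups overlapped (56.2% of all genes tested did not). The log2FC was negative for 36 of the 55 genes, against 47.6% of all genes, and their median was -0.09 against 0.02 for all genes tested. Without any scaling between libraries, the median of all genes moved to 0.15, that of the 55 genes to 0.06, and 25 of the 55 were negative.

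**Figure D1:**
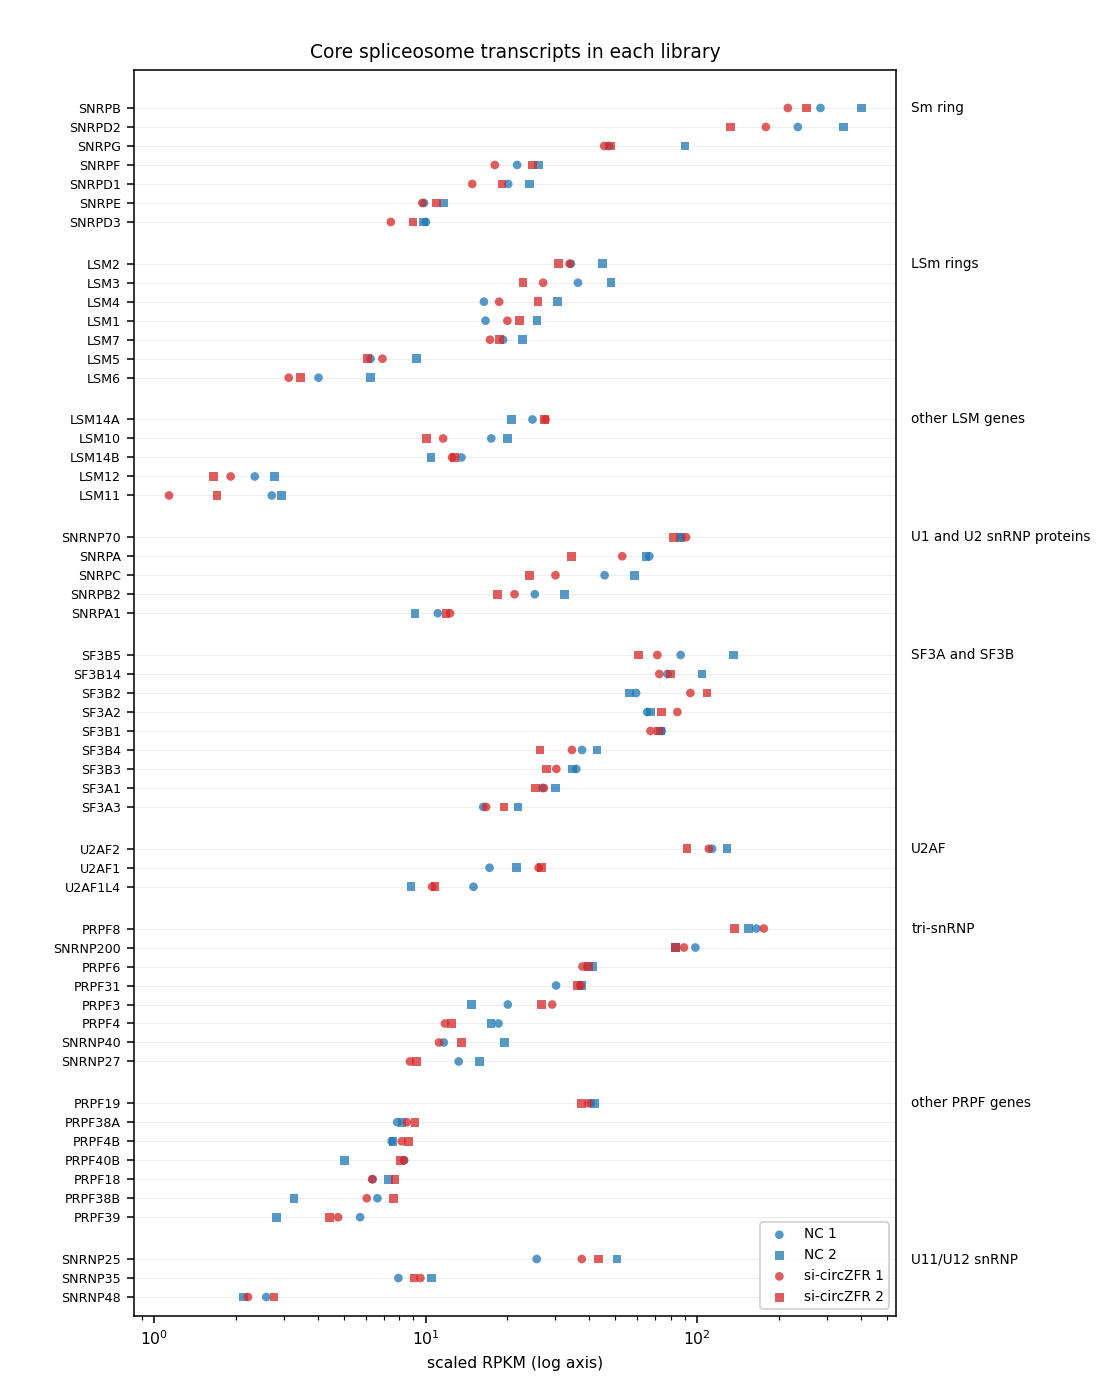
Levels of the core spliceosome genes in scaled RPKM (log axis), by class and without 1 gene that is not reported singly, with NC in blue and si-circZFR in red, and replicate 1 as circles and replicate 2 as squares. Within the Sm ring *SNRPB* and *SNRPD2* lie far to the right of the other 5 genes, and in many Sm and LSm genes the NC 2 square is the value farthest to the right.

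The 7 proteins of the Sm ring assemble around the U1, U2, U4 and U5 RNAs as single copies of each. All 7 of their genes had a negative log2FC (median -0.37), 4 with both si-circZFR libraries below both NC libraries, and 1 with an unadjusted p under 0.05. Among all genes tested these shares were 47.6%, 27% and 21.6%. *SNRPD2* (chromosome 19, 45687460 to 45691953, GRCh38), which encodes SmD2, measured 235 and 346 in NC and 179 and 132 in si-circZFR. The groups did not overlap, but the gap between NC 1 and NC 2 was wider than that between NC 1 and si-circZFR 1, and the log2FC of -0.89 had a standard error of 0.28 (limma FDR = 0.163). *SNRPB* (chromosome 20, 2461642 to 2470789), which encodes SmB and SmB′ and is a close paralog of *SNRPN*, with which reads may be exchanged, measured 284 and 403 in NC and 216 and 253 in si-circZFR (log2FC -0.53, limma FDR = 0.283). It had the highest level of the 55 transcripts in all 4 libraries. *SNRPG*, for SmG, measured 47.2 and 90.2 in NC and 45.4 and 48.0 in si-circZFR. NC 2 stood alone there and the other 3 libraries lay together. The log2FC of -0.48 (limma FDR = 0.412) went to -0.02 without NC 2 and to -0.94 without NC 1. *SNRPE*, for SmE, had the smallest log2FC of the ring (-0.05), with 9.85 and 11.6 in NC and 9.72 and 10.9 in si-circZFR. *SNRPD1*, *SNRPD3* and *SNRPF*, for SmD1, SmD3 and SmF, had log2FC values of -0.37, -0.25 and -0.17, none with an unadjusted p under 0.05.

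The LSm rings share LSM2 to LSM7, with LSM1 completing the cytoplasmic decay ring. Of the 7 genes, 6 had a negative log2FC (median -0.21), and in 4 the si-circZFR libraries lay below both NC libraries (27% of all genes tested). *LSM3* (chromosome 3, 14178817 to 14201122) measured 36.4 and 48.2 in NC and 27.1 and 22.8 in si-circZFR, and the log2FC was -0.73 with a standard error of 0.20 (limma FDR = 0.135). It was the single gene of the rings with an unadjusted p under 0.05 (21.6% of all genes tested), and the groups did not overlap. *LSM6* measured 4.03 and 6.25 in NC and 3.13 and 3.45 in si-circZFR (log2FC -0.49, limma FDR = 0.268). *LSM2* measured 34.3 and 44.9 in NC and 33.9 and 30.9 in si-circZFR, where NC 1 and si-circZFR 1 were nearly equal (log2FC -0.27, limma FDR = 0.437). *LSM1*, the member of the decay ring alone, measured 16.6 and 25.7 in NC and 19.99 and 22.2 in si-circZFR, so that both si-circZFR libraries lay between the NC libraries (log2FC 0.02). *LSM4*, *LSM5* and *LSM7* had log2FC values of -0.03, -0.20 and -0.21. All 7 genes of the rings were higher in NC 2 than in NC 1, by a median of 0.49 on the log2 scale. Of all 13885 genes tested, 6580 were higher in NC 2, and their median difference over all genes was -0.02.

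Among the other LSM genes, both genes of the U7 particle had lower values in si-circZFR. *LSM10* (chromosome 1, 36393436 to 36397908) measured 17.4 and 19.9 in NC and 11.6 and 10.1 in si-circZFR, and *LSM11* (chromosome 5, 157743712 to 157760709) measured 2.71 and 2.95 in NC and 1.13 and 1.70 in si-circZFR. In both genes the gap between the groups exceeded the gaps within them, with log2FC values of -0.74 and -0.67 (standard errors 0.16 and 0.20, limma FDR = 0.105 and 0.156). *LSM12* measured 2.34 and 2.76 in NC and 1.91 and 1.65 in si-circZFR (log2FC -0.35, limma FDR = 0.321). *LSM14A* and *LSM14B*, which encode proteins of cytoplasmic P-bodies and are not part of the spliceosome, had positive log2FC values. *LSM14A* measured 24.7 and 20.6 in NC and 27.6 and 27.4 in si-circZFR (log2FC 0.27, limma FDR = 0.369), and *LSM14B* measured 13.5 and 10.5 against 12.5 and 12.7 with overlapping groups (log2FC 0.08).

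Of the 5 genes for the specific proteins of U1 and U2, 4 had a negative log2FC (median -0.51) and 3 an unadjusted p under 0.05. Among all genes tested these shares were 47.6% and 21.6%. *SNRPC* (chromosome 6, 34757505 to 34773857), which encodes the C protein of U1, which helps it hold the 5′ splice site, measured 45.6 and 58.6 in NC and 30.05 and 24.1 in si-circZFR. The groups did not overlap, and the log2FC of -0.92 (standard error 0.20, limma FDR = 0.102) was the lowest of the 55 genes. By limma-voom on the recovered reads, *LSM11* had a lower value (-1.01) than *SNRPC* (-0.94). *SNRPA* (chromosome 19, 40751203 to 40765389), for the A protein of U1, measured 66.7 and 64.9 in NC and 52.9 and 34.5 in si-circZFR, the si-circZFR libraries lying further from each other than si-circZFR 1 from either NC library (log2FC -0.61, limma FDR = 0.213). *SNRPB2* (chromosome 20, 16730026 to 16742564), for the B″ protein of U2, measured 25.2 and 32.5 in NC and 21.2 and 18.4 in si-circZFR (log2FC -0.51, limma FDR = 0.199). In contrast, *SNRNP70*, for the U1-70K protein, measured 87.4 and 86.8 in NC and 91.0 and 81.9 in si-circZFR (log2FC -0.01, limma FDR = 0.975), and its NC values lay between those of si-circZFR. *SNRPA1*, for the A′ protein of U2, had a log2FC of 0.24. The 3 U1 proteins therefore spanned log2FC values from -0.92 to -0.01.

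The SF3A and SF3B complexes anchor U2 at the branch point. Of their 9 genes, 7 had a negative log2FC (median -0.11), and 1 lower and 1 higher gene had an unadjusted p under 0.05. Among all genes tested, 11.1% were lower and 10.6% higher at that p. *SF3B2* (chromosome 11, 66052364 to 66069308), which encodes the SF3b subunit SAP145, measured 59.6 and 56.3 in NC and 94.4 and 109 in si-circZFR. Both si-circZFR libraries stood well above both NC libraries, with a log2FC of 0.80 (standard error 0.17, limma FDR = 0.0972), the highest value of the 55 genes, and 0.74 after a correction for transcript length and GC content. *SF3B5* (chromosome 6, 144094884 to 144095573), which encodes the small subunit SF3b10 from a single exon, measured 86.9 and 136 in NC and 71.3 and 60.9 in si-circZFR. NC 2 stood apart, and the log2FC of -0.71 (limma FDR = 0.192) was -1.03 without NC 1 and -0.39 without NC 2. *SF3B4*, for SAP49, measured 37.7 and 42.8 in NC and 34.6 and 26.4 in si-circZFR (log2FC -0.40, limma FDR = 0.287). *SF3B1* (chromosome 2, 197389784 to 197435028), the scaffold of SF3B and a gene mutated in several cancers, measured 74.0 and 73.2 in NC and 67.3 and 71.9 in si-circZFR. Its groups did not overlap, but the log2FC was -0.08 with a standard error of 0.16 (limma FDR = 0.788). *SF3A3* measured 16.3 and 21.9 in NC and 16.7 and 19.4 in si-circZFR (log2FC -0.07). *SF3A1*, *SF3A2*, *SF3B3* and *SF3B14*, the listed name of *SF3B6*, had log2FC values of -0.11, 0.24, -0.27 and -0.24, none with an unadjusted p under 0.05.

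The U2AF subunits differed in sign. *U2AF1* (chromosome 21, 43092956 to 43107570), which reads the AG at the end of the intron, measured 17.2 and 21.6 in NC and 26.1 and 26.7 in si-circZFR, with no overlap between the groups (log2FC 0.43, unadjusted p = 0.0457 and limma FDR = 0.222). GRCh38 holds a near-identical copy of this gene, *U2AF1L5*, which is not under that symbol among the values used here, so its reads are uncertain. *U2AF2*, which binds the polypyrimidine tract, measured 113 and 129 in NC and 110.4 and 91.6 in si-circZFR (log2FC -0.26, limma FDR = 0.45). *U2AF1L4*, a related small subunit, measured 15.0 and 8.83 in NC and 10.6 and 10.8 in si-circZFR (log2FC -0.10).

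Of the 8 genes of the U5 and U4/U6.U5 particles, 6 had a negative log2FC (median -0.06), 2 lower genes and 1 higher gene had an unadjusted p under 0.05, and 5 had overlapping groups. Among all genes tested, 11.1% were lower and 10.6% higher at that p, and in 56.2% the groups did not overlap. *PRPF8* (chromosome 17, 1650629 to 1684867), the protein at the centre of the active site, measured 165 and 155 in NC and 176 and 137 in si-circZFR. *SNRNP200* (chromosome 2, 96274338 to 96305546), the helicase that unwinds U4 from U6, measured 98.5 and 83.1 in NC and 89.4 and 83.2 in si-circZFR. The si-circZFR values of *PRPF8* lay on either side of its NC values, those of *SNRNP200* lay between its NC values, and the genes had log2FC values of -0.04 and -0.07 (limma FDR = 0.927 and 0.844). The 2 partners *PRPF4* and *PRPF3*, whose proteins sit together on U4/U6, had opposite signs. *PRPF4* (chromosome 9, 113275658 to 113292905) measured 18.5 and 17.4 in NC and 11.8 and 12.5 in si-circZFR, with a log2FC of -0.53 (standard error 0.15, limma FDR = 0.14). *PRPF3* (chromosome 1, 150321533 to 150353233) measured 20.1 and 14.7 in NC and 29.2 and 26.7 in si-circZFR, with a log2FC of 0.67 (standard error 0.19, limma FDR = 0.147). Neither had overlapping groups. *SNRNP27*, a small protein of the tri-snRNP, measured 13.2 and 15.7 in NC and 8.74 and 9.26 in si-circZFR (log2FC -0.63, limma FDR = 0.127), again without overlap. *PRPF6*, *PRPF31* and *SNRNP40* had log2FC values of -0.06, 0.12 and -0.28.

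The 8 other PRPF genes act at several steps, and 7 of them had a positive log2FC (median 0.13), none with an unadjusted p under 0.05 and 5 with overlapping groups. Among all genes tested, 21.6% had such a p, and in 56.2% the groups did not overlap. *PRPF38B* measured 6.63 and 3.27 in NC and 6.06 and 7.61 in si-circZFR, and *PRPF40B*, related to a yeast U1 protein, measured 8.31 and 5.03 in NC and 8.32 and 8.05 in si-circZFR. In both genes NC 2 was the single low library, and the log2FC values of 0.45 and 0.29 became 0.03 and -0.02 without it. *PRPF39*, a U1-associated protein, had the same low value in NC 2 (5.73 and 2.82 in NC, 4.75 and 4.42 in si-circZFR, log2FC 0.14). *PRPF4B*, a kinase of tri-snRNP proteins, measured 7.49 and 7.58 in NC and 8.15 and 8.64 in si-circZFR (log2FC 0.14). *PRPF19*, the ubiquitin ligase that gives its name to the PRP19 complex, measured 40.6 and 41.8 in NC and 39.7 and 37.5 in si-circZFR (log2FC -0.09). *PRPF18*, a factor of the second step, measured 6.38 and 7.31 in NC and 6.34 and 7.71 in si-circZFR (log2FC 0.03), and *PRPF38A* had a log2FC of 0.13. For the 3 genes of the U11/U12 particle the groups overlapped in every case. *SNRNP25* measured 25.6 and 50.7 in NC and 37.6 and 43.3 in si-circZFR, *SNRNP35* measured 7.93 and 10.5 against 9.56 and 9.05, and *SNRNP48* measured 2.59 and 2.13 against 2.21 and 2.76. Their log2FC values were 0.16, 0.02 and 0.05.

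Proteins that sit in one ring in equal numbers had transcripts of very unequal abundance per length. In the Sm ring the highest transcript, *SNRPB*, exceeded the lowest, *SNRPE* in NC 1 and *SNRPD3* in the other 3 libraries, by 28.9-fold and 41.1-fold in the NC libraries and by 29.0-fold and 28.2-fold in the si-circZFR libraries. These ratios depend on the lengths used and on how reads were assigned. In NC 2 *SNRPD3* had 440 reads on 3808 bases and *SNRPE* 212 on 1547, and reads of *SNRPE* may be split with its processed copies. In the LSm rings the ratio of the highest to the lowest transcript was 9.03 and 7.71 in NC and 10.8 and 8.97 in si-circZFR, with *LSM6* the lowest in all 4 libraries. The ratio in the Sm ring was highest in NC 2 and within 28.2 to 29.0 in the other 3 libraries. The summed level of the Sm ring was 628 and 911 scaled RPKM in NC and 490.2 and 497 in si-circZFR. The summed level of the LSm rings was 133 and 187 in NC and 127 and 130.0 in si-circZFR, so that NC 2 was the highest library in both rings.

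The 19 short Sm and LSm genes were then compared with the 22 long PRPF and SF3 genes. The sets also differed in structure, with a median transcript length of 1153 against 3142.5 bases, a median of 4 against 15.5 exons and a median GC content of 44.8% against 48.0%. The median log2FC was -0.27 for the Sm and LSm genes and -0.0047 for the PRPF and SF3 genes, a difference of -0.27, beside 0.02 for all genes tested. A negative log2FC was found in 16 of 19 against 11 of 22 genes. Both si-circZFR libraries lay below both NC libraries in 11 of 19 against 6 of 22 genes, and above in 1 against 5. An unadjusted p under 0.05 was found in 4 Sm and LSm genes, all lower, and in 4 PRPF and SF3 genes, 2 lower and 2 higher. Over all genes tested, 47.6% had a negative log2FC, 27% lay below in this way and 29.2% above. An unadjusted p under 0.05 was found for 21.6% of all genes tested.

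The same sets were also apart between the control libraries. From NC 1 to NC 2 the median difference was 0.25 for the Sm and LSm genes and 0.04 for the PRPF and SF3 genes, against -0.02 for all genes. Higher in NC 2 were 16 of 19 against 13 of 22 genes, and 6580 of all 13885 genes tested. Between si-circZFR 1 and si-circZFR 2 the medians were 0.11 and 0.01. In the 4 comparisons of 1 si-circZFR with 1 NC library, the Sm and LSm median was -0.20 and -0.08 against NC 1 and -0.51 and -0.50 against NC 2, and that of the PRPF and SF3 genes ran from -0.06 to 0.02. These comparisons share libraries, and the Sm and LSm median was negative in all 4. The difference between the medians of the sets was -0.42 without NC 1 and -0.08 without NC 2.

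**Figure D2:**
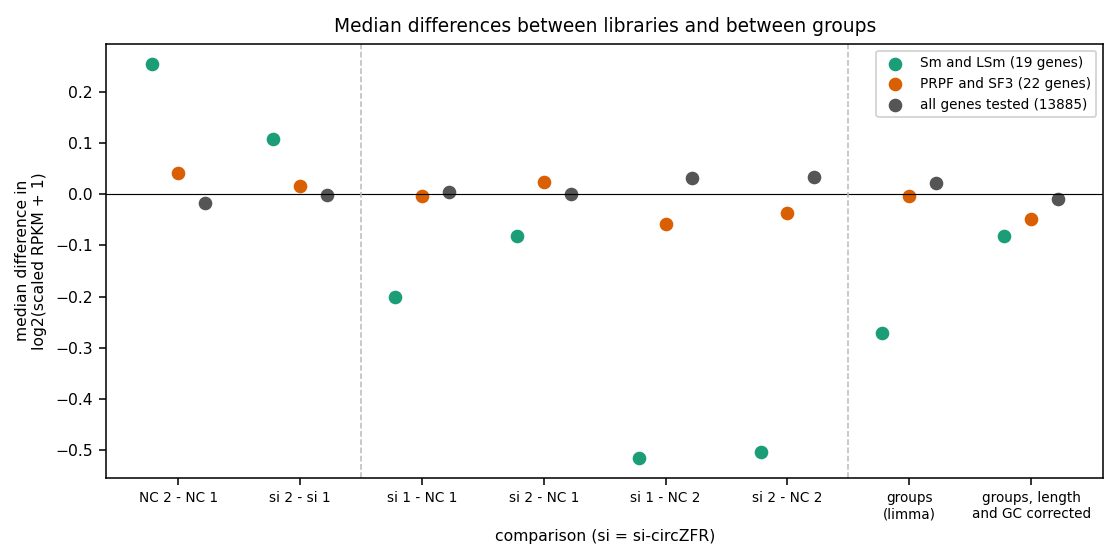
Median difference in log2(scaled RPKM + 1) of the 19 Sm and LSm genes (green), the 22 PRPF and SF3 genes (orange) and all 13885 genes tested (grey), for each pair of libraries, for the groups, and for the groups once length and GC content were corrected for. The green point is at 0.25 between the control libraries, between -0.08 and -0.51 for si-circZFR against NC, and close to the orange point after the correction.

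Transcript length moved with these differences. Over the 55 genes, Spearman's rho of the log2FC with log2 length was 0.378 for si-circZFR minus NC and -0.539 for NC 2 minus NC 1, and over all genes tested the values were 0.294 and -0.343. Genes are not independent replicates, and these correlations are given as descriptions. The 2 PRPF and SF3 genes shorter than 1000 bases, *SF3B5* and *SF3B14*, had a median log2FC of -0.48, and the 20 longer ones 0.05. The 9 Sm and LSm genes shorter than 1000 bases had a median of -0.48, and the 10 longer ones -0.13. After a correction of each library for length and GC content, the medians were -0.08 for the Sm and LSm genes and -0.05 for the PRPF and SF3 genes, a difference of -0.03, and 12 of 19 and 12 of 22 genes were negative. The correction takes out any difference between the groups that follows length or GC content, whatever its source. Sets that differ in length are therefore brought together partly by construction. The largest log2FC values of single genes after the correction were 0.74 for *SF3B2*, 0.73 for *U2AF1* and -0.68 for *SNRPC* and *LSM11*.

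**Figure D3:**
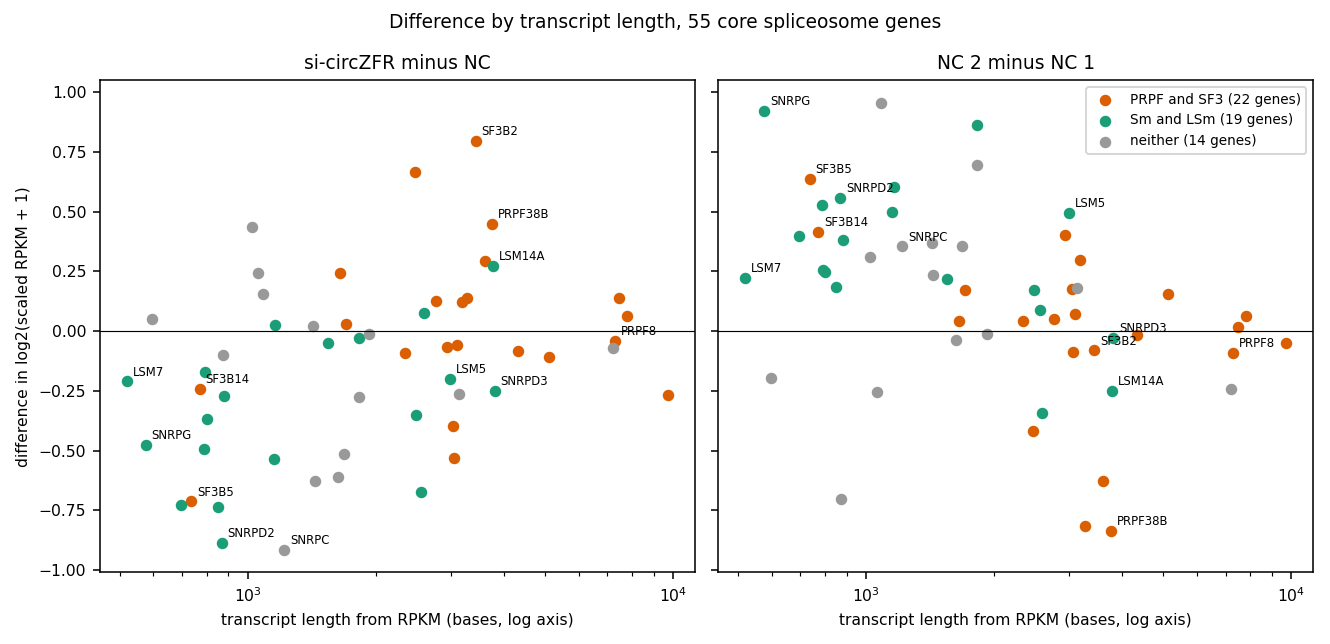
Difference in log2(scaled RPKM + 1) of each of the 55 core spliceosome genes against the transcript length in bases (log axis) recovered from the RPKM values, for si-circZFR minus NC (left) and NC 2 minus NC 1 (right), coloured by set. Short genes lie mostly below 0 on the left and above 0 on the right, *SF3B5* and *SF3B14* among them, and the length of *SNRNP48*, the shortest grey point, is a lower bound.

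Of the other splicing factors outside these families, 82 genes in 5 lists of textbook composition were tested, and none passed the thresholds (11 with an unadjusted p under 0.05, 7 lower and 4 higher, which is 13.4% against 21.6% of all genes tested). Among 23 other U1, U2 and tri-snRNP factors (median log2FC 0.01, 3 lower and 3 higher with an unadjusted p under 0.05), *SART1*, a tri-snRNP protein, measured 11.8 and 10.2 in NC and 19.6 and 25.8 in si-circZFR. Its log2FC of 0.97 (limma FDR = 0.0906) passed both thresholds under limma-voom alone among the alternatives run, with 1.04 (FDR = 0.0446). There 1 of the 82 genes passed, against 2.05% of all genes tested. *CHERP*, a U2-associated protein of the same list, measured 9.27 and 7.14 against 5.12 and 4.06 (log2FC -0.71, limma FDR = 0.138). Of 28 factors of the PRP19 complex and the catalytic steps (median -0.07), *RBM22* measured 14.2 and 15.6 against 10.1 and 9.29 (log2FC -0.57, limma FDR = 0.13) and was the single one with an unadjusted p under 0.05. *WBP11* of that list had a log2FC of 0.42. Of the 5 genes of the exon junction complex, which marks spliced junctions, *EIF4A3* had a log2FC of -0.35 and *MAGOHB* of -0.29, and of 5 proteins of the minor spliceosome *PDCD7* had 0.40 and *ZMAT5* -0.28, none with an unadjusted p under 0.05.

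Sm rings are built by the SMN complex in the cytoplasm and imported with snurportin. Of 21 genes of this assembly and transport list (median log2FC -0.20), 3 lower and 1 higher had an unadjusted p under 0.05 (4 of 21, against 21.6% of all genes tested), and in 13 both si-circZFR libraries lay below both NC libraries (27% of all genes tested). *SNUPN*, for snurportin, measured 13.1 and 16.9 in NC and 23.1 and 26.3 in si-circZFR (log2FC 0.69, limma FDR = 0.129). *SMN2* measured 7.37 and 10.9 in NC and 4.28 and 2.39 in si-circZFR (log2FC -1.24, limma FDR = 0.108), and its nearly identical paralog *SMN1* measured 9.01 and 3.91 in NC and 9.25 and 5.66 in si-circZFR (log2FC 0.24). Reads of *SMN1* and *SMN2* may have been split between them, so neither value alone is certain.

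The 3′UTRs of the 55 genes were searched on the transcript strand for the 7 bases CTGACTC, which had stood out among genes lower in si-circZFR in an earlier pass over these same libraries, so the search gives no independent support. The motif was present in 3 of 55 genes (5.45%), against 11.3% of 11196 genes tested with an annotated 3′UTR. It occurred in *LSM11*, *PRPF4* and *SNRPB2*, at the places printed here 5′ to 3′ on the plus strand of GRCh38, with the motif in capitals.
LSM11, first place, chr5:157756792-157756816: taatttttcCTGACTCtgtttcata
LSM11, second place, chr5:157758255-157758279: ccaccatggCTGACTCattttttgt
PRPF4, chr9:113292266-113292290: ggattgtgaCTGACTCtgcattttt
SNRPB2, chr20:16742138-16742162: acagttagtCTGACTCttctgaata
In all 3 genes both si-circZFR libraries lay below both NC libraries, with a median log2FC of -0.53, against -0.08 for the 52 genes without the motif. Among the 11196 genes tested with an annotated 3′UTR, both si-circZFR libraries lay below both NC libraries in 34.0% of those with the motif and 23.9% of those without it, and the median log2FC was -0.03 and 0.05. A match of 7 bases is a description of the sequence and not a site of any factor.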

How the data were processed

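RNA-seq of 4 libraries (2 NC, 2 si-circZFR) was taken from 1 file per library of RPKM values per gene, which the authors computed and deposited (Ion Proton libraries, analysed by them with edgeR and SVA). The article names the hg38 genome and the submitters' processing notes GRCh37, and the files hold no coordinates, so positions are from GENCODE release 44 (GRCh38), matched by symbol for all 55 genes.

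Whole reads were recovered from the RPKM values for 99.9% of 24289 genes above 0 (tolerance 0.005 of a read), by finding each library's total from small RNAs of known length and each gene's length as the smallest giving whole reads. Counting error and depth follow from these reads. A gene was tested when 2 or more libraries reached an RPKM of 1. Scaling factors between libraries (0.920 to 1.10) came from a trimmed mean of the log ratios without weights, trimming 30% by ratio and 5% by level, and log2(scaled RPKM + 1) was fitted with limma 3.58.1 (R 4.3.3, moderated with a mean trend), which understates changes of genes with low values. Thresholds were those of the study, FDR < 0.05 (Benjamini-Hochberg over all genes tested) and |log2FC| > 1. The test was checked on simulated data for this comparison (13772 genes), where it called 93 of 98 genes changed by 2 on the log2 scale and 99 of 100 changed by 3, and 30 unchanged genes. Unchanged genes thus made up a larger share of the calls than the FDR threshold of 0.05 allows. In the run that gave these counts, every simulated gene had the same spread beyond counting error, and only well covered genes were changed. That run held no drift with transcript length. The 55 genes had log2FC values from -0.92 to 0.80, below the simulated folds, so the check does not cover changes of their size. Values in every library are given for the 3 largest, the smallest and the most abundant of each class and for PRPF8, SF3B1, U2AF1, SNRPB and SNRNP200, and the 2 smallest p-values are named of each other list. Values of 1 gene counted among the 55 and of 1 cell line marker are not reported here.

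The members, lists and tests were chosen with earlier results of these data known. Replicates were not treated as paired: the deviations of same-numbered libraries from their group means correlated at 0.0695 across genes, and no source says that a number marks a shared batch.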

Additional observations from a re-analysis of the deposited data

How the results depend on the processing

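Under 14 alternatives of scaling, filter, pseudocount, model and library, 0 of the 55 core spliceosome genes passed both thresholds. The sign of the log2FC held under every one of them for 27 genes and changed under at least 1 for 28. Over all genes the count passing moved from 8 to 0 without the filter on low values (3673 with an unadjusted p under 0.05), 173 with a CPM filter, 5 with a pseudocount of 0.1, 15 with the length and GC correction, 1 without the mean trend and 285 by limma-voom. With the replicate block 62 genes passed and again 0 core spliceosome genes, and whether the libraries were paired was not settled. Leaving out 1 library gave 0 to 750 genes, the latter without NC 1. The Sm and LSm median of -0.27 was -0.083 with the length and GC correction and ran from -0.46 without NC 1 to -0.098 without NC 2. That of the PRPF and SF3 genes was 0.14 without scaling and -0.049 with the correction, and ran from -0.041 without NC 1 to 0.066 without si-circZFR 1. When all 55 genes were split by length at 1825 bases, whatever their family, the shorter ones had a median of -0.27 and the longer ones of -0.048. *SNRNP48* was placed among the shorter ones by a length that is a lower bound. The difference of the medians was -0.033 with the correction and ran from -0.42 to -0.077. For the other splicing factors the count passing was 1 by limma-voom (SART1) and 0 to 1 with 1 library left out (LUC7L3 without NC 1). The cause of these moves was not tested.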

Other observations

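The RNAs of the snRNPs were nearly out of reach of these libraries. Of 21 small nuclear RNA genes listed, 6 passed the filter on low values, and RNU1-1, RNU1-2, RNU5A-1, RNU5D-1 and RNU6-1 were listed at 0 in all 4 libraries. RNU6-8 measured 7.81 and 4.38 RPKM in NC and 14.9 and 11.9 in si-circZFR, from 10, 6, 18 and 14 reads (log2FC 0.92, limma FDR = 0.151), and RNU7-1, the RNA that LSM10 and LSM11 bind, had 1 and 2 reads in the NC libraries and 0 and 1 in the si-circZFR libraries, too few to compare.

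Processed copies of the core spliceosome genes were listed for 12 of the 55 genes, 45 copies in all, 24 of them above 0 in at least 1 library. In 6 the mean RPKM exceeded 10% of that of the parent gene, led by LSM12P1 (336% of LSM12), SNRPEP4 (225% of SNRPE), SNRPEP2 (105% of SNRPE) and SNRPGP10 (93.4% of SNRPG). Reads of a gene and of its near-identical copy may have been split between them, so the levels of SNRPE, SNRPF, SNRPG and LSM12 are uncertain. SNRPGP10 measured 31.8 and 76.3 RPKM in NC and 48.3 and 56.6 in si-circZFR, with NC 2 again the highest library. SF3B4P1 measured 4.90 and 4.52 RPKM in NC and 2.16 and 1.43 in si-circZFR, with no overlap (log2FC -1.15, limma FDR = 0.0843), where SF3B4 itself had a log2FC of -0.40.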
